A study of Mus musculus with 23 samples.

Results

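The MPP2 surface gate held 3390 of the 50460 kept bone marrow progenitor cells of the untransplanted mice. A kept cell had 1000 UMIs (unique molecular identifiers, each marking 1 captured RNA molecule) or more, 500 or more genes detected, and no more than 10% of its UMIs from mitochondrial genes. A kept cell was a member when its CD150 antibody count lay above the 75th, its CD48 count above the 50th and its CD135 count at or below the 75th percentile of the pooled cells of the Control libraries. These thresholds were 38, 723 and 73 antibody counts over 15613 Control cells, and the same counts were applied to all 6 libraries. Members were therefore chosen by antibody counts, and these antibodies are described below without a test.

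Hematopoietic stem cells give rise to several classes of multipotent progenitor. In the mouse these are separated on c-Kit+ Sca1+ Lineage- cells by the SLAM family proteins CD150 and CD48 and by the cytokine receptor CD135, encoded by Slamf1, Cd48 and Flt3. The CD150-high CD48-high class, called MPP2, is known for its bias toward megakaryocytes, which shed platelets, and toward erythroid cells. Ezh2 is the main methyltransferase of Polycomb repressive complex 2 (PRC2), which silences genes by methylating histone H3 at lysine 27, and Jarid2 is an accessory subunit that helps the complex find its targets.

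The study compared mice lacking Ezh2 or Jarid2 in blood cells with Control mice, in order to separate what each protein does in stem and progenitor cells. Each library came from sorted c-Kit+ Sca1+ Lineage- marrow cells of mice aged 2 months that had not been transplanted, profiled with a 3′ single-cell kit together with 6 barcoded antibodies. Control, Ezh2 KO (floxed Ezh2, Ezh2fl/fl) and Jarid2 KO (floxed Jarid2, Jarid2fl/fl) each had 1 male and 1 female library, and all groups, Control included, are labelled with Mx1-Cre, a recombinase gene driven by an interferon-inducible promoter that acts in blood and in other tissues. The labels do not say whether a library held cells of 1 or several mice, so p-values between genotypes measure the spread between libraries only.

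The 6 libraries held 7162 to 10041 kept cells, 92105257 to 143133494 UMIs and a median of 10968 to 13019 UMIs per cell. There were 314 cell barcodes found in 2 libraries, and 44 members (1.30%) carried one. Members were deep: their median was 14971 to 20578 UMIs per library, against 9660 to 11806 in the CD150-high CD48-low gate. The Scrublet doublet score marked 9.54% to 21.7% of members, against 1.69% to 3.25% of the CD150-high CD48-low gate. Counts of calls without marked cells, and within cells of 5000 to 20000 UMIs, are given in the text that follows.

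The gate held a different share of the cells in each library. It took 3.28% of the male and 7.70% of the female Control cells (235 and 651 cells), 8.16% and 11.6% of the Ezh2 KO cells (774 and 1166 cells) and 2.80% and 4.59% of the Jarid2 KO cells (218 and 346 cells). Mean shares were 5.49% ± 3.13 (Control), 9.88% ± 2.44 (Ezh2 KO) and 3.70% ± 1.27 (Jarid2 KO; SD, n = 2 each). The male Control and both Jarid2 KO libraries were thus low, and the pair of Ezh2 KO libraries high. These shares follow from the antibody counts that define the gate, and the median CD48 count over kept cells itself ran from 433 in the female Jarid2 KO library to 1553 in the male Ezh2 KO library. With percentiles taken inside each library Control had 4.24% and 6.82% of its cells in the gate, Ezh2 KO 8.62% and 6.91%, and Jarid2 KO 4.39% and 6.60%, so that both Ezh2 KO libraries were again the highest, the female one close to the female Control library, and Control and Jarid2 KO overlapped. With a gate set on centred log ratios of the antibody counts, Control had 2.57% and 6.0%, Ezh2 KO 9.39% and 9.73%, and Jarid2 KO 1.36% and 2.70%, which set the Ezh2 KO libraries further apart. Leaving the cells with B-lineage transcripts (described below) out of both counts gave 3.18% and 7.75% for Control, 5.98% and 9.69% for Ezh2 KO and 2.69% and 4.22% for Jarid2 KO, and the male Ezh2 KO library then lay below the female Control library.

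**Figure D1:**
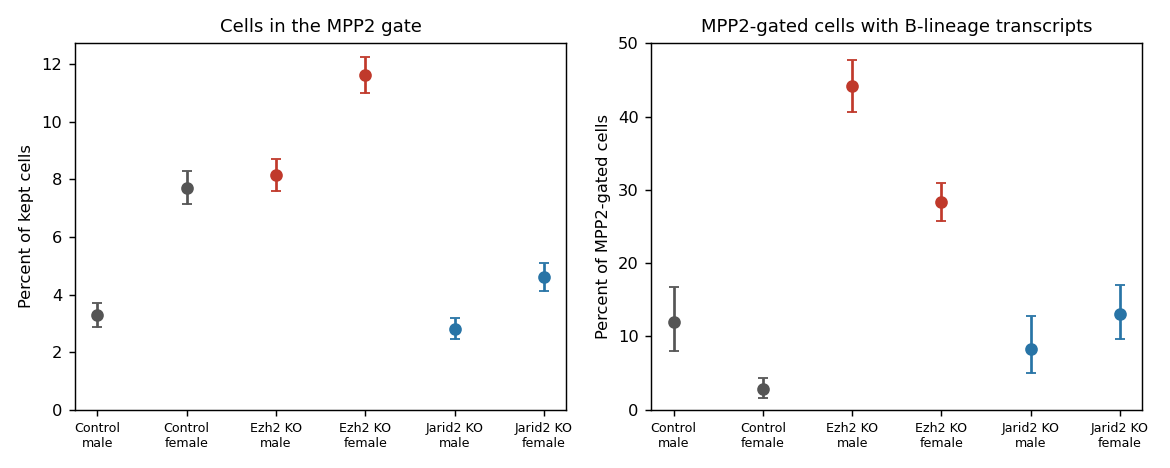
The left panel plots the percent of kept cells inside the MPP2 gate in each of the 6 libraries, and the right panel the percent of MPP2-gated cells that carry B-lineage transcripts, with exact 95% binomial intervals that cover counting error only. Gate shares run from 2.80% to 11.6%, and B-lineage shares from 2.76% in the female Control library to 44.2% in the male Ezh2 KO library.

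The messenger RNAs of the gated proteins were read as a check of the gate, on summed counts per library and gate scaled to CPM (counts per 1000000 UMIs, after the trimmed-mean scaling of edgeR). The 3 other gates were CD150-high CD48-low CD135-low (7518 cells, the stem cell surface type), CD150-low CD135-low with any CD48 (25127 cells, here the MPP3 gate) and CD150-low CD135-high (13256 cells, the MPP4 gate). Slamf1, which encodes CD150, had a lowest, median and highest library value of 10.7, 14.4 and 16.3 CPM in the MPP2 gate, against 19.9, 22.2 and 26.7 CPM in the stem cell gate and 0.907, 1.21 and 1.73 CPM in the MPP3 gate. The MPP2 gate thus lay between these gates with no overlap. Cd48 ran from 68.6 through 85.1 to 110 CPM in the MPP2 gate and from 4.49 through 5.58 to 8.45 CPM in the stem cell gate, again without overlap. Flt3, which encodes CD135, was at 33.8 to 67.4 CPM in the MPP2 gate and at 164 to 205 CPM in the MPP3 gate.

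The CD150 threshold divided a continuous range. The 723 members with 39 to 46 CD150 counts, just inside, had 4.57 CPM of Slamf1 and 9.15 CPM of Pf4 in their pooled counts, and 38.9% of them carried B-lineage transcripts. The 1165 cells with 31 to 38 counts, just outside, had 2.54 CPM of Slamf1 and 9.88 CPM of Pf4, and 36.7% carried B-lineage transcripts. The 814 members with at least 142 counts, above the 90th percentile of Control, had 28.5 CPM of Slamf1 and 990.4 CPM of Pf4, and 8.48% carried B-lineage transcripts. These values pool 6 libraries, which differ in B-lineage share and in cell number, and the make-up of each band was not balanced. In the pools Pf4 and the B-lineage share were close on either side of the threshold, Slamf1 was higher inside it, and Pf4 was highest in the members far above it. Just inside and just outside, Car1 was at 445 and 383 CPM, Itga2b at 19.4 and 20.5 CPM, and Gata1 at 17.2 and 12.6 CPM. In the members far above the threshold these 3 genes were at 606, 102 and 44.8 CPM.

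The other 3 antibodies did not choose the members. Their raw counts were compared with no scaling for depth or total antibody, while members were chosen for high raw counts of CD150 and CD48. Per library the members had a median of 14971.5 to 20578.5 UMIs, and the MPP3 gate 10288 to 12122.5. The doublet score marked 9.54% to 21.7% of members and 5.33% to 6.35% of the MPP3 gate. The part of depth and doublets in the differences below was not tested. The median CD117 (c-Kit) count of the members was 358 ± 65.0 over the 6 libraries, against 218 ± 39.8 in the MPP3 gate, higher in 6 of 6 libraries (exact sign-flip test over libraries, two-sided, p = 0.03125, the smallest 6 libraries can give; adjusted p = 0.046875 over 6 tests). CD117 was higher than in the stem cell gate (312 ± 41.6) in 5 of 6 libraries (exact p = 0.0625). The exception was the male Ezh2 KO library, at 262 counts against 278. Without its cells that carried B-lineage transcripts (described below) the medians there were 355.5 and 280. CD201, the endothelial protein C receptor found on stem cells, had a median of 68.2 ± 13.9 counts, below the 96.8 ± 17.9 of the stem cell gate in 6 of 6 libraries and above the 49.3 ± 8.43 of the MPP3 gate in 6 of 6 (each exact p = 0.03125, adjusted p = 0.046875). The RNA of Procr, the gene of CD201, went the other way against the MPP3 gate and was lower in the members (given below). The raw CD201 counts are therefore not read as more of the protein per cell. Sca1 was below the stem cell gate in 6 of 6 libraries (415 ± 61.7 against 552 ± 48, the same exact p) and above the MPP3 gate in 5 of 6 (371 ± 32.4, exact p = 0.0625).

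The gate also held members that carried B-lineage transcripts, which its name does not cover. A cell was counted as such with at least 3 UMIs, and at least 0.1% of its UMIs, over 10 B-lineage genes (among them Ebf1 and Pax5, transcription factors that set B identity, and Vpreb1, Vpreb3 and Igll1 of the surrogate light chain). They were 28 of 235 members (11.9%) in the male and 18 of 651 (2.76%) in the female Control library, 342 of 774 (44.2%) and 330 of 1166 (28.3%) in the Ezh2 KO libraries, and 18 of 218 (8.26%) and 45 of 346 (13.0%) in the Jarid2 KO libraries. The Ezh2 KO shares were above all others. Such cells made up 0.437% to 1.71% of the stem cell gate and 4.85% to 36.3% of the MPP3 gate, where the Ezh2 KO libraries were again the highest (36.3% and 19.4%, against 4.85% to 13.9% in the other 4). In the Ezh2 KO libraries they lay near the CD150 threshold, at a median of 51 (male) and 50 (female) counts against 89 and 83.5 in the other members, and had less CD117, at 116 and 123.5 counts against 355.5 and 361. In Control they stood less apart, with CD150 at 73.5 and 74 against 87 and 85, and CD117 at 319 and 296.5 against 383 and 358. In Jarid2 KO they had CD150 at 63 and 48 against 67 and 71, and CD117 at 204.5 and 138 against 417.5 and 479. The doublet score marked 18.7% and 19.4% of them in Ezh2 KO, 57.1% and 55.6% in Control, and 33.3% and 17.8% in Jarid2 KO. Counts of calls and the results that turned on these cells are given below with and without them, an alternative chosen after the data had been seen.

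Against the stem cell gate, members had lower RNA of stem cell genes and higher RNA of erythroid, granulocyte-monocyte, lymphoid and cell cycle genes. The fit across all genes (edgeR quasi-likelihood, library as block, false discovery rate (FDR) under 0.05) called 9737 of 15201 genes (64.1%), 4689 higher (30.8%) and 5048 lower (33.2%), so that single calls are common here and sizes matter more. Without the B-transcript cells 9841 of 14982 genes (65.7%) were called. Summed counts cannot tell fewer cells of a type from less RNA per cell.

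All 14 genes of the stem cell list were lower in the MPP2 gate, with a median log2 difference of -1.24 against -0.03 over all genes tested. Procr, which encodes CD201, was at 3.38 to 13.7 CPM against 26.9 to 53.5 CPM in the stem cell gate (log2 difference -2.16 ± 0.13 SE). Fgd5, a stem cell marker gene used for reporter mice, had 2.73 to 9.39 CPM against 22.6 to 39.7 CPM (-2.16 ± 0.15), and Hoxb5 had 0.781 to 2.11 against 7.16 to 11.3 CPM (-2.38 ± 0.20). The transcription factor genes Hlf and Mecom fell by less, with log2 differences of -1.23 ± 0.12 and -1.25 ± 0.11, and remained well expressed, Mecom at 297 to 479 CPM against 943 to 1036 CPM. Tek, the angiopoietin receptor, was at 12.4 to 19.9 against 26.7 to 30.0 CPM (-0.82 ± 0.11). None of these genes overlapped between the gates, but the share of all tested genes without overlap was not counted. Without the B-transcript cells 13 of the 14 genes were lower.

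The megakaryocyte list was split, with 5 of 20 tested genes higher, 8 lower and a median log2 difference of 0.00. Itga2b, which encodes CD41, was at 36.6, 59.1 and 75.6 CPM (lowest, median and highest library) against 32.2, 42.3 and 60.8 CPM and was higher in 6 of 6 libraries (0.46 ± 0.08). Pf4, a chemokine of platelet granules, had 177, 448 and 599 CPM against 125, 196 and 429 CPM (0.85 ± 0.27, FDR 0.0090), which leaving out the male Jarid2 KO library turned into 0.65 (FDR 0.0543). Vwf, the platelet adhesion protein von Willebrand factor, went the other way, with 9.13, 19.1 and 25.2 CPM against 20.1, 26.8 and 39.0 CPM (-0.82 ± 0.14). Cavin2, a caveola coat protein, was at 16.0 to 45.3 CPM against 41.0 to 70.2 CPM (-0.96 ± 0.13). The list's lower members Vwf and Fli1 are also expressed in stem cells. Without the B-transcript cells 8 genes of the list were higher and 7 lower.

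The erythroid list had 13 of 21 genes higher and 2 lower (Tal1 and Hbb-bt), with a median log2 difference of 1.07. Gata1, the transcription factor that drives erythroid and megakaryocyte genes, was at 25.6, 32.7 and 57.1 CPM against 5.77, 9.98 and 17.1 CPM (1.81 ± 0.23). Klf1, an erythroid transcription factor, had 20.5, 29.5 and 87.3 CPM against 1.57, 6.09 and 11.6 CPM (2.44 ± 0.28), and Epor, the erythropoietin receptor, 9.34, 13.0 and 32.5 CPM against 3.94, 5.55 and 8.40 CPM (1.34 ± 0.30). Car1, an early erythroid carbonic anhydrase, had 432, 621 and 1892 CPM against 9.96, 123 and 214 CPM (2.93 ± 0.45). For each of them the groups did not overlap, and the highest value was that of a Jarid2 KO library. The share of all tested genes without overlap was not counted, so the lack of overlap is not read as a trait of these genes. Without the B-transcript cells 14 genes were higher and 2 lower.

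Granulocyte-monocyte genes were higher in 9 of 15 cases and lower in 1 (Lyz2). Mpo, the myeloperoxidase of neutrophil granules, was at 33.9, 128 and 201 CPM against 1.42, 3.38 and 5.02 CPM (5.16 ± 0.28), and the granule protease genes Ctsg and Elane had log2 differences of 6.18 ± 0.38 and 5.89 ± 0.60. Elane spread widely among the members, from 1.87 CPM in 1 library to 112 CPM in another. All 5 tested basophil and mast cell genes were higher, with Cpa3, a mast cell carboxypeptidase, at 25.1 to 64.2 CPM against 2.66 to 5.86 CPM (3.35 ± 0.11). Early lymphoid genes were higher in 8 of 10 cases and lower in 0 (median log2 difference 1.81), and without the B-transcript cells in 6 and 1. B-lineage genes were higher in 9 of 10 cases, for example Ebf1 with 69.3 to 1813 CPM against 2.76 to 21.5 CPM (5.70 ± 0.33). These 10 genes also marked the B-transcript cells, so this rise and the shares given above are not separate results. Without those cells the granulocyte-monocyte counts were again 9 and 1.

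Cell cycle genes were higher throughout, in members that were also deeper and more often marked as doublets. Per library 28.6% to 52.0% of members had over 20000 UMIs, against 5.54% to 13.8% of the stem cell gate. How far depth and doublets enter the cell cycle values is not given here. All 16 genes of the DNA replication list and all 16 of the mitosis list passed the test, with median log2 differences of 0.77 and 1.42, and the counts were the same without the B-transcript cells. Mki67, which marks cycling cells, was at 293, 332 and 404 CPM against 99.3, 123 and 174 CPM (1.41 ± 0.15), and the mitotic cyclin Ccnb1 at 42.9 to 84.3 CPM against 16.8 to 26.0 CPM (1.63 ± 0.18). Of the PRC2 subunits, 7 of 11 were higher and 3 lower. Ezh2 was at 178, 256 and 275 CPM against 102, 134 and 158 CPM (0.86 ± 0.06), Suz12 at 167 to 187 against 119 to 137 CPM (0.45 ± 0.04) and Eed at 56.5 to 69.1 against 43.4 to 46.4 CPM (0.44 ± 0.05). Ezh1, the second methyltransferase of the complex, was lower (-0.56 ± 0.07), as was Jarid2, at 127 to 186 against 147 to 197 CPM (-0.21 ± 0.06). All 8 tested stress genes of tissue dissociation were lower, for example Junb at 60.5 to 75.4 against 92.1 to 138 CPM (-0.79 ± 0.07), and their part in the other differences was not tested.

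**Figure D2:**
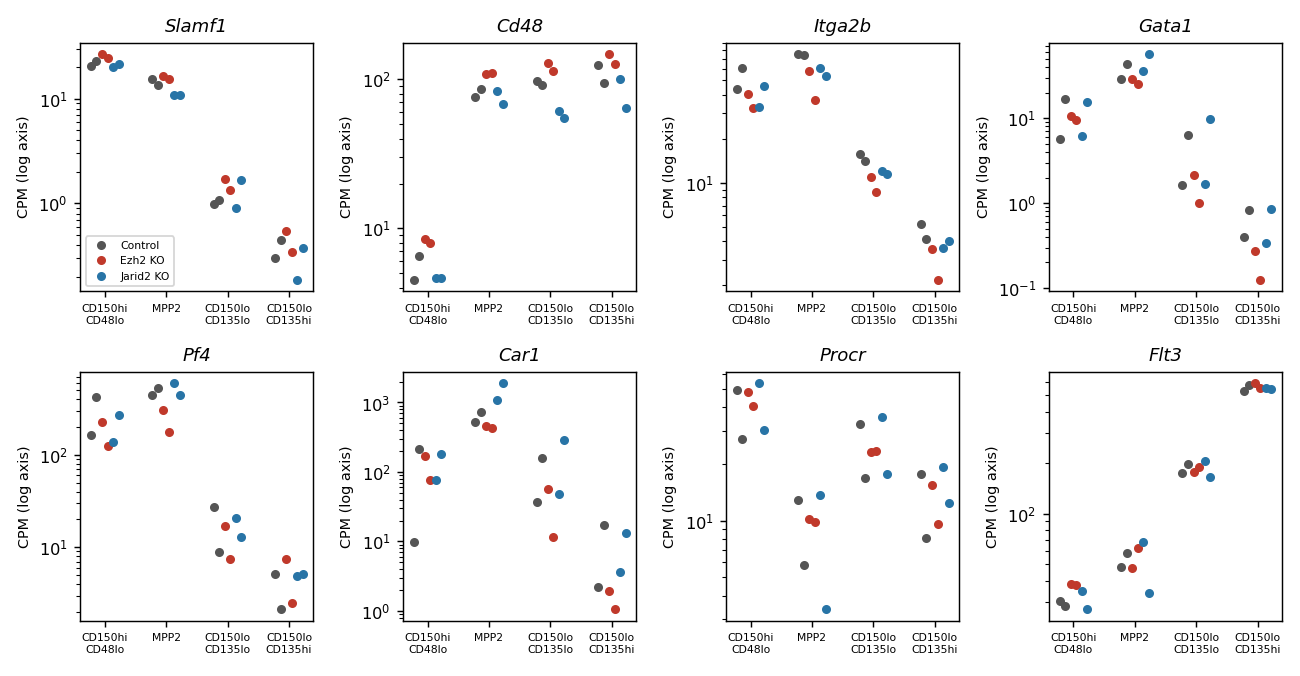
Each panel plots a gene's scaled CPM in the summed cells of each of 4 surface gates on a log axis, with 1 point per library coloured by genotype. Slamf1, Itga2b, Gata1, Pf4 and Car1 are higher in the MPP2 gate than in the CD150-low CD135-low gate in all 6 libraries, and Procr is lower.

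Genes were also ranked by size, among those with a mean of at least 20 CPM and 1 direction in 6 libraries. Beyond the lists, the genes with the largest falls against the stem cell gate were Cpne8, a calcium-dependent membrane-binding protein (log2 difference -2.74 ± 0.18), Il1rapl2 (-2.58 ± 0.19), Gda, the guanine deaminase (-2.52 ± 0.11), Npas3 (-2.49 ± 0.27) and Chrm3, a muscarinic receptor (-2.44 ± 0.16). Lhcgr, the luteinizing hormone receptor, followed with 8.72 to 17.8 CPM against 56.0 to 85.8 CPM (-2.40 ± 0.16), as did the scaffold gene Magi2 with 13.4 to 33.7 CPM against 109 to 153 CPM (-2.39 ± 0.10). Abcg3 (-2.37 ± 0.24), Tgm2 (-2.26 ± 0.13) and Prex2 (-2.19 ± 0.13) completed the 10. Each was lower in 6 of 6 libraries. The 10 largest rises were Ctsg, Elane and Mpo of the granulocyte list and the lymphoid genes Igll1, Pax5, Ebf1, Il7r, Lef1, Vpreb3 and Vpreb1. With the B-transcript cells left out, the values of Ebf1, Igll1, Pax5 and Vpreb3 were -0.52, -0.33, -0.75 and -0.47, a fall that the choice of cells fixes, since these genes are among the 10 that marked them.

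Against the CD150-low CD135-low MPP3 gate, members had more megakaryocyte and erythroid RNA and less lymphoid RNA. That gate mixed CD48-high and CD48-low cells, and the part of its CD48-low cells in the differences below was not tested. The same fit called 7911 of 15201 genes (52.0%), 3872 higher (25.5%) and 4039 lower (26.6%), and 9300 of 14982 (62.1%) without the B-transcript cells. Within cells of 5000 to 20000 UMIs it called 4964. Of the megakaryocyte list 17 of 20 tested genes were higher and 0 lower, with a median log2 difference of 1.48 against -0.02 over all genes. Of the erythroid list 17 of 21 were higher and 1 lower, with a median of 1.65. Both counts were the same without the B-transcript cells.

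Slamf1 was 10.6-fold higher in the MPP2 gate than in the MPP3 gate (log2 difference 3.40 ± 0.12), while Cd48 was at 54.9 to 128 CPM in the MPP3 gate and did not pass the test (0.00 ± 0.09, FDR 0.98). Pf4 had 7.50, 14.8 and 27.1 CPM in the MPP3 gate, so that the members were 26.4-fold higher (4.72 ± 0.31). Cavin2 was at 0.0906 to 0.771 CPM in the MPP3 gate (6.02 ± 0.20). Gp1bb, a chain of the platelet receptor for von Willebrand factor, had 3.27 to 7.53 CPM in the members and 0.0362 to 0.178 CPM in the MPP3 gate (6.04 ± 0.28), and Treml1, a platelet granule receptor, 8.07 to 18.3 against 0.634 to 1.05 CPM (3.87 ± 0.15). Vwf was higher as well (3.03 ± 0.16).

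Among erythroid genes, Gata1 was at 1.01, 1.92 and 9.85 CPM in the MPP3 gate (3.52 ± 0.23), Klf1 at 0.942, 2.63 and 14.6 CPM (3.02 ± 0.26), Epor at 0.561, 1.18 and 5.93 CPM (2.98 ± 0.29) and Car1 at 11.6, 52.9 and 291 CPM (3.56 ± 0.45). The partners of Gata1 moved less, with Gfi1b at 1.63 ± 0.14, Zfpm1 (FOG1) at 1.09 ± 0.06 and Tal1 at 0.53 ± 0.08. The adult globin gene Hbb-bt was lower in the members, at 9.14 to 38.9 CPM against 24.8 to 77.7 CPM (-0.85 ± 0.16). The largest rises were ranked among genes with a mean of at least 20 CPM and 1 direction in 6 libraries. They also held Mfsd2b, a sphingosine-1-phosphate exporter of red cells and platelets (3.71 ± 0.18), Aqp1, the red cell water channel (3.36 ± 0.26), Ermap, an erythroid membrane protein (3.04 ± 0.29), Slc25a21 (3.03 ± 0.29), Ces2g (3.00 ± 0.25) and the metallothionein gene Mt2 (2.52 ± 0.25).

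Stem cell genes did not move together here, with 4 of 14 higher and 5 lower. Tek (1.14 ± 0.11), Gata2 (1.13 ± 0.08) and Ctnnal1 (0.63 ± 0.12) were higher than in the MPP3 gate, and Procr (-1.41 ± 0.13), Hlf (-1.09 ± 0.12) and Mecom (-0.45 ± 0.11) were lower. Early lymphoid genes were lower in 7 of 10 cases (9 of 10 without the B-transcript cells) and higher in 0: Flt3 at -1.82 ± 0.09, the chromatin organizer Satb1 at 30.4 to 78.9 against 90.8 to 154 CPM (-1.23 ± 0.13), and Dntt, the terminal transferase, at -1.06 ± 0.24 (-2.20 without the B-transcript cells). Granulocyte-monocyte genes were lower in 9 of 15 cases and higher in 1. Mpo (-0.10 ± 0.20, FDR 0.70) overlapped between the gates, Cebpa, the factor that starts granulocyte commitment, was lower (-0.66 ± 0.14), and Ms4a3 was higher (0.59 ± 0.18), though at 0.33 and FDR 0.0935 without the female Ezh2 KO library.

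The other large falls against the MPP3 gate were Iglc2, an immunoglobulin light chain segment (-2.48 ± 0.58), Wfdc17 at 3.95 to 16.5 against 27.9 to 84.8 CPM (-2.37 ± 0.16), Ighm (-1.96 ± 0.66, and -1.47 without the B-transcript cells, which Ighm helped to mark), the RNA-binding protein gene Rbm47 (-1.53 ± 0.12), the chemokine gene Ccl4 (-1.48 ± 0.11), Myl10 (-1.40 ± 0.16), Ccser1 (-1.24 ± 0.13) and the lymphotoxin gene Ltb (-1.23 ± 0.09). Mitosis genes were higher in 16 of 16 cases and replication genes in 15 of 16, with Mki67 at 157, 193 and 322 CPM in the MPP3 gate (0.72 ± 0.14). Interferon-stimulated genes were lower in 9 of 10 tested cases. Ezh2 (0.31 ± 0.06) and Suz12 (0.28 ± 0.04) were higher, Ezh1 was lower (-0.34 ± 0.07), and Jarid2 did not pass the test (-0.10 ± 0.06, FDR 0.14).

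**Figure D3:**
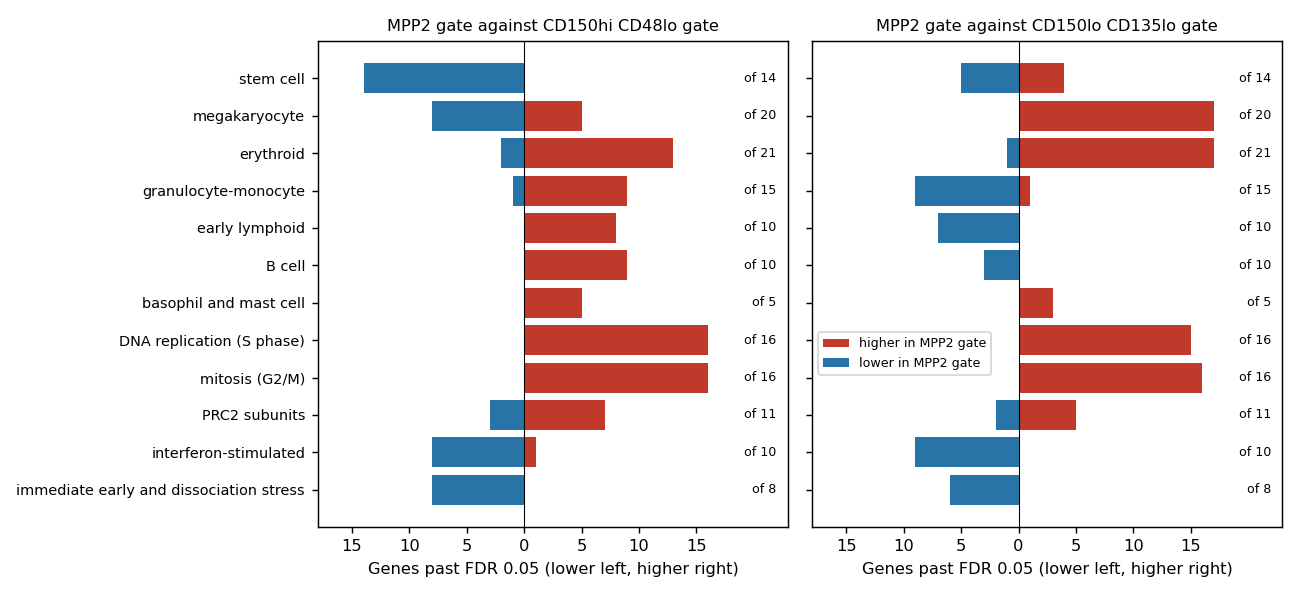
Bars give the number of genes of each list past FDR 0.05, higher in the MPP2 gate to the right and lower to the left, with the number tested printed at the right edge. Against the CD150-high CD48-low gate all 14 stem cell genes are lower, and against the CD150-low CD135-low gate 17 of 20 megakaryocyte and 17 of 21 erythroid genes are higher.

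The promoters of 3 genes that rose together with Gata1 in the members, and of Slamf1, are shown because each holds the core GATA motif GATAA (its reverse complement is TTATC). They are RefSeq sequences of build GRCm38.p6, from 250 bases before to 50 after the annotated start, read 5′ to 3′ on the strand of the gene, with the motif in capitals. Slamf1 is on the plus strand of chr1:171766882-171767181, Pf4 on the plus strand of chr5:90772185-90772484, Klf1 on the plus strand of chr8:84901732-84902031 and Epor on the minus strand of chr9:21963527-21963826.
Slamf1: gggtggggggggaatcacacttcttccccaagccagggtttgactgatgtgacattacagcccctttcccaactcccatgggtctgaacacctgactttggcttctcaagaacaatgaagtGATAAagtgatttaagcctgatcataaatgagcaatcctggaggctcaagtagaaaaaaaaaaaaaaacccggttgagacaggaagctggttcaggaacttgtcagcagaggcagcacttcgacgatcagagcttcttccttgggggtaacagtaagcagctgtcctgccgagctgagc
Pf4: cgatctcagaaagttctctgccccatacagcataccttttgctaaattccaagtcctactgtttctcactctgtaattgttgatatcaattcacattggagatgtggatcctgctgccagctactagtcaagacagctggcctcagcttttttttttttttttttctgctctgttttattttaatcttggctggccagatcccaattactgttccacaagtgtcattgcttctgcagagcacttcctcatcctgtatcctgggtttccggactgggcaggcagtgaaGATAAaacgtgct
Klf1: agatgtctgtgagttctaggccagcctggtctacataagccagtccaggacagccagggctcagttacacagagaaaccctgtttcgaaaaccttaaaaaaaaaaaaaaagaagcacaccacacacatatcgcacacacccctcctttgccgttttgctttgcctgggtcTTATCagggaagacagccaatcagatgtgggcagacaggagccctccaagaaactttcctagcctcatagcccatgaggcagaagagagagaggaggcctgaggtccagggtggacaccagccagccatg
Epor: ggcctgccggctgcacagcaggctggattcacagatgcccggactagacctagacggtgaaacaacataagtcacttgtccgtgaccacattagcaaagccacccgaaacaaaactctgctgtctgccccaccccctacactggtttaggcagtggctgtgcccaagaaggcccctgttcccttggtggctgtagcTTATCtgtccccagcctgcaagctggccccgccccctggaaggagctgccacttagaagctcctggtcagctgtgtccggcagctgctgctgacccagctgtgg
The motif began 129 bases before the start in Slamf1, 80 before it in Klf1 and 54 before it in Epor, and 38 bases after it in Pf4. The counts that follow are of promoters, of which a gene can have several, and list genes with no entry are left out. At least 1 copy on either strand was in 12 of 21 promoters (18 genes) of the erythroid list (57.1%), 8 of 18 of the megakaryocyte list (44.4%), 4 of 13 of the stem cell list (30.8%), 2 of 8 of the B cell list (25%) and 0 of 16 of the granulocyte-monocyte list, against 8347 of all 32851 promoters (25.4%). The promoters of Gata1 and Itga2b held no copy in this window. A match is a run of letters and not a measured binding site.

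Pairs of transcripts from separate lineages were seen together in few members. To compare gates of unequal depth, each cell was thinned to 5000 UMIs, which left out 6 to 121 members per library. Pf4 was then detected in 7.27%, 16.4% and 21.0% of members (lowest, median and highest library), against 12.4%, 15.7% and 23.9% of the stem cell gate and 1.29% to 3.29% of the MPP4 gate, which serves as a level of background for megakaryocyte RNA. Car1 was detected in 7.56%, 12.9% and 29.1% of members, against 0.453% to 5.61% of the stem cell gate and 0.173% to 4.49% of the MPP4 gate. Klf1 was found in 4.85% to 17.8% of members and 0.130% to 0.449% of the MPP4 gate. Without thinning the median shares were 29.2% for Pf4, 14.6% for Car1 and 14.1% for Klf1.

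Mpo was detected in 8.73%, 14.7% and 22.3% of thinned members, against 11.1% to 23.8% of the MPP3 gate, whose range overlapped, and above the stem cell gate (0.997% to 2.01%). Mki67 was detected in 43.2% to 53.1% of members and in 12% to 17.9% of the stem cell gate, and Hlf in 41.3% to 56.8% against 78.4% to 86.6%. Pf4 and Car1 were seen together in 17 members over the 6 libraries, at 0% to 1.25% per library. The product of the single shares was 0.550% to 4.22%, and the joint share was below it in 6 of 6 libraries. Car1 and Mpo were together in 0% to 0.779% of members, below products of 1.01% to 4.00%, and Pf4 and Mpo in 0.383% to 1.40%, below products of 1.13% to 3.79%, also in 6 of 6 libraries each. The MPP3 gate showed the same for the 2 pairs with Mpo in 6 of 6 libraries each, and for Pf4 and Car1 in 5 of 6. In the stem cell gate Pf4 and Car1 lay below the product in 4 of 6. A joint share below the product was thus not a trait of the MPP2 gate alone. Cdh5, an endothelial marker, was at 0 in all thinned members.

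The deleted genes were read in every library as CPM of the members' summed counts, without the trimmed-mean scaling. The genotype values that follow are given the same way, except those set against cells outside the gate, which carry that scaling. Ezh2 was at 276 (male) and 253 (female) CPM in Control, 183 and 179 CPM in Ezh2 KO and 259 and 257 CPM in Jarid2 KO. Both Ezh2 KO libraries were the lowest, and the log2 difference from Control was -0.51 ± 0.10 (FDR 0.059). Jarid2 was at 144 and 138 CPM in Control, 124 and 134 CPM in Ezh2 KO and 186 and 149 CPM in Jarid2 KO, so the Jarid2 KO libraries were not lower (0.30 ± 0.11, FDR 0.63). Counts of 3′ ends cannot show whether an exon inside a transcript was deleted, so these values check the labels of neither KO.

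Between Ezh2 KO and Control members, 7 of 10 B cell genes and 4 of 11 Polycomb-linked regulators were higher, and 4 of 20 megakaryocyte genes were lower. The fit over the 6 libraries (edgeR quasi-likelihood, genotype and sex) called 288 of 13729 genes (2.1%), 277 higher (2.02%) and 11 lower (0.0801%). Once the B-transcript cells were removed, it called 6 of 13235 (0.0453%), all higher. With single libraries left out the count ran from 141 (female Control out) to 465 (female Jarid2 KO out) and 504 (male Jarid2 KO out). Among members with CD150 above the 90th percentile 0 genes passed, and without the marked doublets 459 did.

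The B cell list had 7 of 10 genes higher and the early lymphoid list 4 of 10, with median log2 differences of 3.03 and 0.83 against 0.00 over all genes. Ebf1 was at 406 and 69.2 CPM in Control, 1771 and 963.9 CPM in Ezh2 KO and 207 and 212 CPM in Jarid2 KO (2.83 ± 0.54, FDR 0.054, and 1.53 at FDR 0.94 without the B-transcript cells, which Ebf1 itself helped to mark). Dntt was at 74.2 and 21.8 CPM in Control, 252 and 138 CPM in Ezh2 KO and 38.8 and 27.6 CPM in Jarid2 KO (2.22 ± 0.25, FDR 0.0094), and at -0.03 without the B-transcript cells. Rises were ranked among genes with a mean of at least 20 CPM and no overlap between Ezh2 KO and Control. The 10 largest were Tmem108, Sorcs2, Rnase12, Vpreb2, Sdk1, Vpreb3, Igll1, Sdc4, Gfra1 and Gfra2. Tmem108, a transmembrane protein gene, was at 7.17 and 1.41 CPM in Control and 145 and 109 in Ezh2 KO (5.28 ± 0.40, FDR 0.0035). In members lacking B transcripts, it was at 0.713 and 0.592 CPM in Control and 2.45 and 1.52 in Ezh2 KO (1.53, FDR 1.0), and none of the 10 passed the test. Vpreb3 also failed it when either Ezh2 KO library was left out.

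Of the Polycomb-linked regulators, 4 of 11 were higher. Cdkn2a, which encodes the p16 and ARF inhibitors of the cell cycle and is a classic PRC2 target, had 1 UMI in the male and 3 in the female Control members, 270 and 329 UMIs in Ezh2 KO, and 0 and 1 UMIs in Jarid2 KO. As CPM this was 0.211 and 0.248 in Control and 19.0 and 17.4 in Ezh2 KO (fitted log2 difference 6.20 ± 0.37, FDR 0.0029). Nearly all of these UMIs lay in the B-transcript cells: without them the counts were 0 and 3 in Control and 1 and 4 in Ezh2 KO. Cdkn1a, the p21 inhibitor, was at 6.75 and 7.44 CPM in Control and 27.9 and 33.3 in Ezh2 KO (2.15 ± 0.15), and at 3.80 and 6.34 against 6.63 and 7.28 CPM without the B-transcript cells (0.45, FDR 1.0). Igf2bp3, a fetal RNA-binding protein gene, likewise went from 1.57 ± 0.22 to -0.08.

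Hmga2, a chromatin protein of fetal stem cells, kept its difference. It was at 28.7 and 38.5 CPM in Control, 67.1 and 95.4 CPM in Ezh2 KO and 42.4 and 35.7 CPM in Jarid2 KO (1.30 ± 0.16, FDR 0.011). After the B-transcript cells were taken out, it was at 29.0 and 38.6, 83.9 and 111, and 43.0 and 35.6 CPM (1.54 ± 0.16, FDR 0.039). Cma1, a mast cell chymase, had 0 and 1 UMIs in Control, 105 UMIs in each Ezh2 KO library and 0 in each Jarid2 KO library, and it passed the test with and without the B-transcript cells (FDR 0.011 and 0.039). The neural adhesion gene Ncam1 was at 4.22 and 2.07 CPM in Control and 15.5 and 19.1 in Ezh2 KO (2.65 ± 0.32, and 2.75 ± 0.31 without the B-transcript cells). The remaining 3 genes of the 6 were Dock3 (2.32 ± 0.26 and 2.38 ± 0.27), the phosphodiesterase gene Pde3b (1.60 ± 0.12 and 1.40 ± 0.15) and the phosphatase gene Ppm1e (1.88 ± 0.12 and 1.54 ± 0.17). In each of these 6 genes both Ezh2 KO libraries lay above the other 4. All 6 were named because they passed both fits, and those in no list after their values were seen. Passing as higher nearly fixes the order against Control, so that order is no separate result. The share of all tested genes in the same order was not counted.

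Megakaryocyte genes were lower in 4 of 20 cases and higher in 0 in Ezh2 KO, with a median of -0.70. Vwf was at 20.9 and 25.2 CPM in Control, 8.92 and 9.13 CPM in Ezh2 KO and 19.9 and 17.0 CPM in Jarid2 KO (-1.33 ± 0.16, FDR 0.011). Cavin2 was at 46.0 and 41.8 CPM in Control, 22.5 and 16.0 CPM in Ezh2 KO and 27 and 20.9 CPM in Jarid2 KO (-1.17 ± 0.13, FDR 0.0093). Both held lower Ezh2 KO values without the B-transcript cells but then missed the threshold (-1.18 and -0.96, each FDR 0.083), as they did without the female Control library (-1.13 at FDR 0.10 and -1.02 at FDR 0.0621). Cd9, a platelet tetraspanin (-0.65 ± 0.09), Clec1b, the podoplanin receptor of platelets (-2.52 ± 0.45), and Rab27b, a granule transport GTPase (-0.78 ± 0.11), also missed the threshold without the female Control library (at -0.60, -2.03 and -0.64) and without the B-transcript cells (FDR 0.40, 0.20 and 0.26). The same 3 genes missed it without the female Ezh2 KO library (at -0.61, -1.84 and -0.73), and Cd9 without the male Control library (at -0.69). Pf4 was at 453 and 534 CPM in Control, 301 and 177 CPM in Ezh2 KO and 598 and 421 CPM in Jarid2 KO, and its difference in Ezh2 KO did not pass (-1.06 ± 0.23, FDR 0.079, and -0.85 at FDR 0.40 without the B-transcript cells). Itga2b was at 76.8 and 73.9, 56.4 and 36.6, and 60.3 and 49.9 CPM (-0.69 ± 0.15, FDR 0.08, and -0.42 at FDR 1.0 without the B-transcript cells). No erythroid gene passed in either direction.

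**Figure D4:**
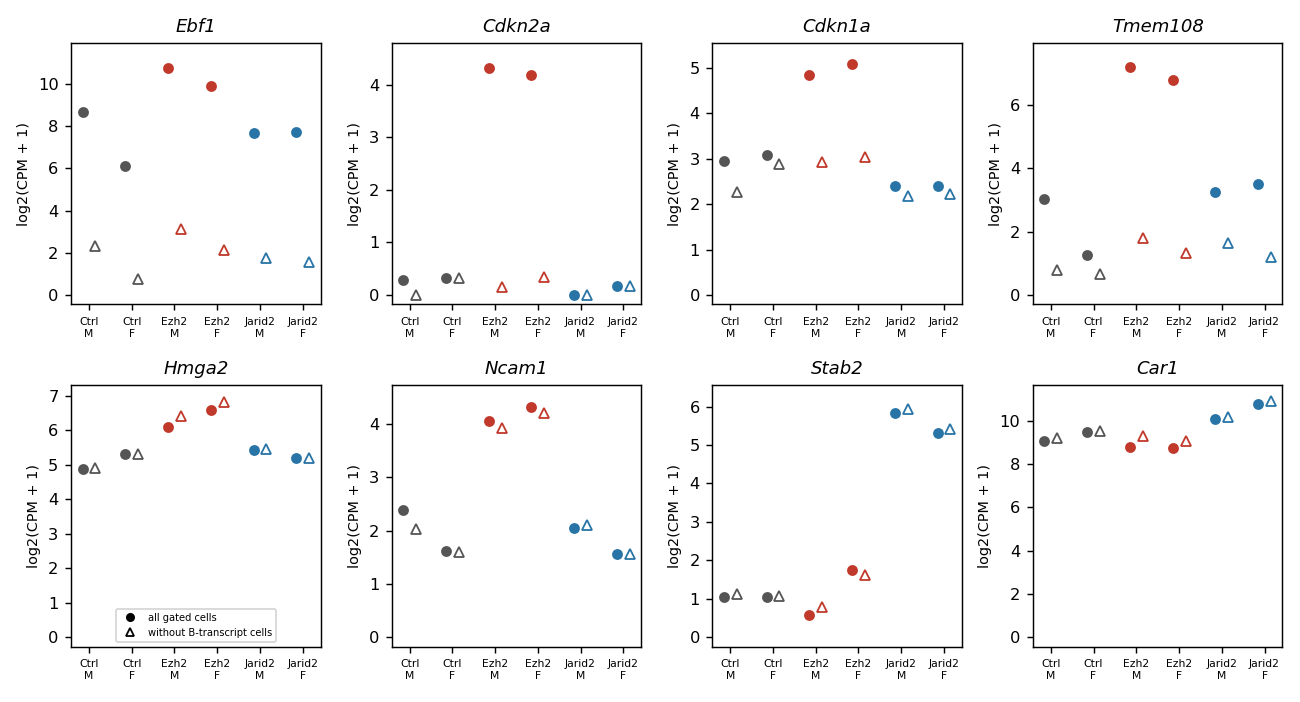
Each panel plots log2(CPM + 1) of a gene in the summed MPP2-gated cells of each library, with filled circles for all gated cells and open triangles for those without B-transcript cells. Cdkn2a, Ebf1, Cdkn1a and Tmem108 fall in the Ezh2 KO libraries when those cells are left out, while Hmga2 and Ncam1 there, and Stab2 and Car1 in the Jarid2 KO libraries, stay close to their values in all gated cells.

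Between Jarid2 KO and Control members, 0 of 13729 genes passed the test (0.0%). There were 1068 genes with an unadjusted p under 0.05 in this edgeR fit, and DESeq2 called 27. Leaving out single libraries gave 2 calls (without the female Jarid2 KO library) to 82 (without the male one), with 60 and 10 without the male and the female Control library and 31 without either Ezh2 KO library. With the B-transcript cells left out, 4 of 13235 genes passed (0.0302%), all higher, and 3 are described here. Stab2, a hyaluronan scavenger receptor, was at 1.05 and 1.08 CPM in Control (5 and 13 UMIs), 0.491 and 2.38 in Ezh2 KO (7 and 45 UMIs) and 56.5 and 38.9 in Jarid2 KO (253 and 320 UMIs). Its log2 difference from Control was 5.53 ± 0.54 (FDR 0.11), and 5.5 ± 0.39 (FDR 0.0051) without the B-transcript cells. Icos, a costimulatory receptor of T and innate lymphoid cells, was at 1.27 and 0.496 CPM in Control and 21.9 and 11.7 in Jarid2 KO (4.43 ± 0.51, FDR 0.16, and 4.42 ± 0.49, FDR 0.045). Ccr9, the receptor that guides progenitors to the thymus, was at 4.64 and 1.41 CPM in Control and 21.2 and 10.6 in Jarid2 KO (2.59 ± 0.33, FDR 0.21, and 2.96 ± 0.31, FDR 0.039). The Jarid2 KO libraries were the highest for all 3 genes. Their order against Control is no separate result, since the genes were picked for passing as higher.

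Of the gate markers, Slamf1 was at 15.6 and 13.6 CPM in Control and 10.7 and 10.2 in Jarid2 KO (-0.40 ± 0.17, FDR 0.64), and Gata1 at 29.5 and 43.6 against 35.9 and 53.3 CPM (0.35 ± 0.21, FDR 0.71). Car1 was at 528 and 723 CPM in Control and 1088 and 1766 in Jarid2 KO (1.24 ± 0.19, FDR 0.29), and Klf1 at 23.6 and 35.8 against 36.8 and 81.5 CPM (1.05 ± 0.29, FDR 0.57). Pf4 overlapped between the groups (0.06 ± 0.22, FDR 0.95). Both Jarid2 KO libraries lay above both Control libraries for Car1 and Klf1, though neither gene passed. With so few libraries such an order can arise by chance. The share of all tested genes that separated in this way was not counted, so no rise is read from it. The values also do not show that the groups were alike.

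Set directly against each other, Jarid2 KO and Ezh2 KO members differed in 393 of 13729 genes (2.86%), 65 higher in Jarid2 KO (0.473%) and 328 lower (2.39%). Once the B-transcript cells were removed, 27 of 13235 genes (0.204%) were called, 9 higher and 18 lower. The count was 194 and 207 without the female Ezh2 KO and the female Jarid2 KO library, and 611 and 665 without the male Control and the male Jarid2 KO library. The erythroid list had 8 of 21 genes higher in Jarid2 KO and 0 lower, with a median log2 difference of 1.24. Car1 was at 445 and 432 CPM in Ezh2 KO and 1088 and 1766 CPM in Jarid2 KO (1.68 ± 0.19, FDR 0.0096). Klf1 had 22.4 and 20.5 against 36.8 and 81.5 CPM (1.44 ± 0.28, FDR 0.049), Rhd, a blood group protein gene, 15.6 and 14.9 against 32.1 and 71.9 CPM (1.76 ± 0.28), and Ermap 39.3 and 32.0 against 70.8 and 142 CPM (1.56 ± 0.29). The female Jarid2 KO library was the highest in each, and without it Klf1, Rhd and Ermap missed the threshold (0.86, 1.14 and 0.98, at FDR 0.25, 0.0867 and 0.13), as they did without the female Ezh2 KO library (0.85, 1.21 and 0.99, at FDR 0.14, 0.0720 and 0.0729). In members lacking B transcripts, no erythroid gene passed, with Car1 at 1.38 ± 0.21 (FDR 0.064).

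Innate lymphoid genes were higher in Jarid2 KO in 3 of 7 cases: Il1rl1, the interleukin-33 receptor, with 10.2 and 7.50 CPM in Ezh2 KO and 28.8 and 26.2 CPM in Jarid2 KO (1.67 ± 0.17, FDR 0.0061), Gata3 with 8.49 and 12.4 against 34.8 and 22.7 CPM (1.44 ± 0.25, FDR 0.034) and Icos (3.92 ± 0.43, FDR 0.0082). After the B-transcript cells were taken out, Il1rl1 and Icos passed (FDR 0.040 and 0.026) and Gata3 did not (FDR 0.064). Gata3 also missed the threshold without the male Jarid2 KO library (FDR 0.0562). Stab2 (4.98 ± 0.45, and 5.08 ± 0.34 without the B-transcript cells), Ccr9 (2.79 ± 0.31 and 2.91 ± 0.29) and Inpp4b, a phosphoinositide phosphatase gene at 84.9 and 87.7 against 242 and 172 CPM (1.26 ± 0.13 and 1.03 ± 0.14), passed both fits.

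Genes lower in Jarid2 KO than in Ezh2 KO in both fits included Pbx3, a Hox cofactor gene, at 151 and 143 CPM in Ezh2 KO and 57.1 and 36.3 CPM in Jarid2 KO (-1.67 ± 0.12, and -1.63 ± 0.14 without the B-transcript cells), with 82.3 and 65.3 CPM in Control. Hmga2 was lower too (-1.03 ± 0.16, FDR 0.025), though at -0.86 and FDR 0.093 without the female Ezh2 KO library, as were Ppm1e (-2.09 ± 0.12), Pde3b (-1.30 ± 0.12), Macrod2 (-1.02 ± 0.10) and Fmn2 (-2.78 ± 0.22). Ncam1 (-2.81 ± 0.34) missed the threshold without the female Jarid2 KO library (FDR 0.0694). Tmem108, Vpreb2, Igll1, Sdk1 and Sdc4, all called lower with the B-transcript cells included, did not pass without them, nor did Igll1 without the female Ezh2 KO library (FDR 0.0600). Ifi27l2a, an interferon-inducible gene, was at 72.0 and 45.1 CPM in Ezh2 KO and 3.57 and 6.68 CPM in Jarid2 KO (-3.30 ± 0.31), and at 9.49 and 11.1 against 2.60 and 2.61 CPM without the B-transcript cells (-1.94 ± 0.27, FDR 0.041). Ezh2 itself was higher in Jarid2 KO (0.54 ± 0.10, FDR 0.042), and Vwf was higher (1.04 ± 0.17, FDR 0.028), each past the threshold only with the B-transcript cells (FDR 0.0645 and 0.11 without them). Ezh2 missed it when any 1 of 5 libraries was left out, with log2 differences of 0.46 to 0.56. Vwf missed it without the female Jarid2 KO or the female Ezh2 KO library, at 1.20 and 0.995.

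To ask whether a genotype difference was particular to the gate, the difference inside it was set against that in all other kept cells of the same libraries. This interaction passed for 186 of 17919 genes (1.04%) in Ezh2 KO, 171 larger inside the gate (0.954%) and 15 smaller (0.0837%), and for 83 (0.463%) in Jarid2 KO, 67 larger (0.374%) and 16 smaller (0.0893%). With the B-transcript cells left out, the counts were 5 (0.0289%) and 6 (0.0347%). Leaving out single libraries gave 118 (without the female Control library) to 682 (female Jarid2 KO out) and 679 (male Jarid2 KO out) in Ezh2 KO. In Jarid2 KO it gave 53 (without the female Control library) to 2120 (without the male Jarid2 KO library), and 163 to 317 without each of the other 4. Both interactions use the same Control libraries, so they are not independent. In Ezh2 KO 0 of 20 tested megakaryocyte genes passed (median term -0.16). Of the Polycomb-linked regulators Cdkn1a and Igf2bp3 passed with the B-transcript cells included, and Hmga2 did not. The differences of Hmga2 and of the megakaryocyte genes were thus not shown to be particular to the gate. Neutrophil granule genes were among those that passed with and without the B-transcript cells. Mpo was at 33.6 and 130 CPM inside the gate and 69.1 and 151 outside it in Control, 127 and 173 inside and 100 and 92.0 outside in Ezh2 KO, and 200 and 111 inside and 110 and 80.3 outside in Jarid2 KO. Mpo was thus lower inside the gate than outside in both Control libraries and higher inside in the other 4. Its interaction was 1.19 ± 0.17 in Ezh2 KO and 1.23 ± 0.18 in Jarid2 KO, and that of Ctsg 1.17 ± 0.17 and 1.23 ± 0.18. DESeq2 called none of these 4 terms (FDR 0.41 and 0.51 for Mpo, 0.63 and 0.63 for Ctsg). With the log ratio gate the Ezh2 KO terms were 0.24 for Mpo and 0.10 for Ctsg and missed the threshold (FDR 0.94 and 0.67).

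In Jarid2 KO, C1qtnf12, a secreted C1q-related protein gene, rose more inside the gate, at 39.6 and 83.3 CPM in Control and 117 and 229 in Jarid2 KO, against 19.5 and 53.4 and 31.0 and 61.0 outside (1.11 ± 0.11, and 1.14 without the B-transcript cells). Within cells of 5000 to 20000 UMIs the sign turned, at -0.22 (FDR 1.0), and with the log ratio gate the term was 0.36 (FDR 0.30). The interaction terms of the stem cell genes Mecom (-0.54 ± 0.12) and Meis1 (-0.44 ± 0.10) were below 0. Mecom was at 476 and 440 CPM inside and 587 and 635 outside in Control, and at 418 and 298 inside and 668 and 703 outside in Jarid2 KO. Neither passed without the B-transcript cells (FDR 0.26 and 0.29) or without either Control library. Without the male and the female Control library Mecom was at -0.54 and -0.54, and Meis1 at -0.50 and -0.38. Mecom also missed the threshold without the female Jarid2 KO library, at -0.29.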

How the data were processed

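The authors deposited, per sample, count matrices of UMIs per gene and cell together with counts of 6 antibodies. Per the file headers they come from Cell Ranger 7.2.0, while the submitters' processing notes name Cell Ranger 3.1.0, Seurat 3.0, Partek and mm10 with no role; the sources used here give no filters before deposit. Only the 6 baseline gene expression matrices, which hold the antibody rows, were used; the transplant and chromatin samples were not analysed here.

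The members and gene lists were chosen with earlier results of these data known. Raw UMIs were summed per library and gate, and tested with edgeR 4.0.16 in R 4.3.3 (quasi-likelihood, trimmed-mean scaling, filterByExpr, Benjamini-Hochberg over all genes tested, threshold 0.05). Gates of a library share its cells' source, so the library was a block; genotypes were fitted with sex. Genotype tests of 2 libraries against 2 rest on the spread shared by all 6. Intervals are exact binomial at 95% and cover counting error only. Detection used cells thinned to 5000 UMIs, and doublets were marked by Scrublet score (scanpy 1.11.5), 0.8% per 1000 barcodes, and kept; its own threshold marked 0 to 176 cells per library.

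Named genes were the gate markers, Ezh2, Jarid2, list members, and up to 10 genes per direction and comparison by log2 difference with a mean of at least 20 CPM, a symbol in use and no overlap (genotypes) or 1 direction in 6 libraries (gates). Others were named after their values were seen: those that passed without B-transcript cells. Some further genes are not reported here. Counting on strand is not given, so antisense partners cannot be told apart. Alternatives were DESeq2 1.42.0, other scaling, no count filter, doublets removed, other gates, depth limits, shared barcodes or B-transcript cells removed, no sex or library block, and each library left out. Promoters came from the RefSeq table of GRCm38.p6.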

Additional observations from a re-analysis of the deposited data

Results flagged for a closer look

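The genotype difference inside the MPP2 gate differed from that in all other kept cells, by the interaction term of the edgeR fit, for 186 genes in Ezh2 KO and for 83 genes in Jarid2 KO. Every value here is a difference of log2 differences, positive where the gene was relatively higher inside the gate.

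In Ezh2 KO, granule genes of the neutrophil lineage passed this test, with Mpo at 1.19, Elane at 1.5 and Ctsg at 1.17, and all 3 passed it without the B-transcript cells as well. With a gate set on centred log ratios Elane turned to -0.19 and Mpo and Ctsg were at 0.24 and 0.10, all short of the threshold, and DESeq2 called none of the 3 (FDR 0.41, 0.18 and 0.63 for Mpo, Elane and Ctsg). With the gate-by-sex term left out Elane was at 0.92 (FDR 0.89), while Mpo and Ctsg passed. The log2 ratio of Elane inside over outside the gate was -2.11 (male) and 0.11 (female) for Control and -0.51 and 1.69 for Ezh2 KO, so the groups overlapped across the sexes while the Ezh2 KO library was the higher within each sex. Among genes with a mean of at least 20 CPM and no overlap, the largest other terms were those of Ighm (2.39), Tmem108 (2.32), Sdc4 (1.89), Sorcs2 (1.84) and Vpreb3 (1.72). None of them passed without the B-transcript cells, and Ighm and Vpreb3 are among the genes that marked those cells. Over all the terms named here for Ezh2 KO, DESeq2 called 4 and did not call 9, the granule genes included. Terms below 0 belonged to Pde5a (-0.88), Gnb4 (-0.71), H2-Eb1 (-0.70), Cd74 (-0.67) and Cd180 (-0.61). None of these 5 passed without the B-transcript cells (FDR 0.19 to 1.0), and Cd180, Cd74 and H2-Eb1 passed neither with within-library percentiles nor with the gate-by-sex term left out. Cd180 missed the threshold without the male Control (FDR 0.86), female Control (FDR 0.0901) or male Ezh2 KO library (FDR 0.45), and Gnb4 without the female Control (FDR 0.0718) or female Ezh2 KO library (FDR 0.0740). Cd74 and H2-Eb1, which serve antigen presentation, were at -0.32 and -0.38 (FDR 1.0 each) without the female Control library, and at -0.13 and -0.28 without the female Ezh2 KO library.

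In Jarid2 KO, Mpo was at 1.23 and Ctsg at 1.23, and both passed without the B-transcript cells. DESeq2 called neither (FDR 0.51 and 0.63), and with the gate-by-sex term left out both missed the threshold (FDR 0.0647 and 0.0851). C1qtnf12 was at 1.11, and turned to -0.22 within cells of 5000 to 20000 UMIs. The lymphoid genes Ighm (3.35), Ly6d (2.13) and Il7r (1.35) passed with the B-transcript cells only, and Il7r was at 0.70 (FDR 0.33) without the female Control library. Terms below 0, relatively lower inside the gate than the same difference outside it, were those of Sugct (-0.68), Bex1 (-0.61), Gmpr (-0.59), Plekha5 (-0.58), Dlg2 (-0.58), Mecom (-0.54) and Meis1 (-0.44). Each missed the threshold without the B-transcript cells (FDR 0.18 to 0.35) and without the male Control library. Without that library the terms were -0.65, -0.59, -0.59, -0.43, -0.64, -0.54 and -0.50 in the same order. None of these 7 passed with DESeq2, with within-library percentiles or with the gate-by-sex term left out, and only Plekha5 passed with the size-factor (RLE) scaling. All but Plekha5 also missed the threshold without the female Control library, with terms of -0.38 to -0.70. Sugct, Bex1, Gmpr, Dlg2 and Mecom missed it without the female Jarid2 KO library, with terms of -0.28 to -0.54. Over all the terms named here for Jarid2 KO, DESeq2 called 1 and did not call 12. The fit without the gate-by-sex term did not call 10 of them, within-library percentiles 8 and RLE scaling 7. These tests share their Control libraries.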

How the results depend on the processing

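Against the stem cell gate, the 9737 calls stayed within 1.5 times under every alternative run (7716 to 9903), and against the MPP3 gate the 7911 calls did so except for 4964 within cells of 5000 to 20000 UMIs. The genotype counts moved with most choices. For Ezh2 KO against Control (288) they were 729 with no count filter, 459 without marked doublets, 499 with within-library percentiles, 1110 with a centred log ratio gate, 514 at 5000 to 20000 UMIs, 6 without B-transcript cells and 0 with CD150 above the 90th percentile. For Jarid2 KO against Control (0) the same choices gave 176, 2, 1, 2, 9, 4 and 1, and DESeq2 27. For Jarid2 KO against Ezh2 KO (393) they gave 1084, 671, 792, 1156, 216, 27 and 2. For the Ezh2 KO interaction (186) no filter gave 318, doublets removed 339, the log ratio gate 1336, the depth limits 406, no B-transcript cells 5 and DESeq2 64. For the Jarid2 KO interaction (83) these gave 381, 186, 266, 168, 6 and 13, and within-library percentiles 16. Leaving out 1 library gave 141 to 504, 2 to 82, 194 to 665, 118 to 682 and 53 to 2120 in the same order. The cause was not tested. The sex term served as the replicate block, since male and female carry the replicate numbers; without that pairing term the counts were 111, 0, 133, 130 and 26, and the correlations of same-numbered deviations were 0.144, 0.195 and 0.0635. The numbers stand for sex, which the fit uses, and the labels name no animal, litter or day that same-numbered libraries share. Mean shares of the gate were 5.5% (within-library percentiles) and 2.03% (log ratio gate) in Jarid2 KO, and 1.61%, 2.27% and 0.721% with CD150 above the 90th percentile. Signs turned without B-transcript cells for Ebf1 (-0.52), Igll1 (-0.33), Pax5 (-0.75) and Vpreb3 (-0.47) against the stem cell gate, which follows from the choice of cells since these genes marked them, for Dntt (-0.026), Igf2bp3 (-0.084) and Sorcs2 (-0.32) in Ezh2 KO against Control, and in the interactions for Ighm (-0.51), Sorcs2 (-0.98), Tmem108 (-0.023) and Vpreb3 (-0.34) in Ezh2 KO and Ly6d (-4.71) in Jarid2 KO. With the log ratio gate Flt3 turned to -0.0076 against the stem cell gate and the Elane interaction to -0.19, and C1qtnf12 turned to -0.22 within 5000 to 20000 UMIs. The libraries held 218 to 1166 members each.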
